A study of Mus musculus with 5 samples.

Results

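The zinc finger genes Sall1, Sall2, Sall3, Sall4, Osr1, Osr2 and Wt1 were examined in H3K27me3 ChIP-Seq peak lists of mouse embryonic fibroblasts (MEFs). The 7 genes were chosen by name and matched by symbol in the GENCODE vM1 annotation of mm9, where they are 7 of 22350 protein-coding genes on chromosomes 1 to 19 and X. The cells were isogenic MEF lines whose parental cells carried a floxed Eed allele, and the lines used here had been transduced with lentivirus for stable expression of H3.3 K27R, H3.3 K27M or human EZHIP. By the study's methods the vector drove the transgenes from an EF1a promoter and transduced cells were selected with puromycin. The series also held the parental control and an Eed deletion line from a single clone, neither of which was analysed here. Each line had 1 library and its list gave peak positions without heights or read counts, so that depth was unknown, no difference could be tested against replicate spread, and the fibroblast identity of the lines could not be checked against marker expression.

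H3K27me3 is the repressive histone mark placed by Polycomb Repressive Complex 2 (PRC2), which is recruited to CpG islands and spreads the mark into broad domains over silent developmental genes. H3.3 K27M, the histone mutant of midline glioma, and EZHIP, a protein of posterior fossa ependymoma, both inhibit PRC2, whereas the K27R list served as the reference because that mutant was expressed in the same way. All 7 genes encode transcription factors with C2H2 zinc fingers. The Sall genes are the spalt-like family. Sall1 acts in kidney and limb development, Sall4 in pluripotent and germ cells, and Sall3 in nerve and palate development, while Sall2 is the most divergent relative. Osr1 and Osr2 are the odd-skipped related genes of intermediate mesoderm, limb joints and palate, and Osr1 is also expressed in connective tissue fibroblasts. Wt1, the Wilms tumour gene, acts in kidney, gonad and mesothelium.

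The lists differed between the Osr genes and between the starts of Sall2, so that the 250 bases just before these start sites are shown with every CG dinucleotide in capitals, together with those of Sall1. All are from mm9 and read 5′ to 3′ along the gene. Osr1 (chr12:9580998-9581247, plus strand) lay in no list. Osr2 (chr15:35225603-35225852, plus strand), Sall1 (chr8:91568062-91568311, minus strand) and the distal start of Sall2 (chr14:52948438-52948687, minus strand) lay in all 3 lists. The proximal start of Sall2 (chr14:52935999-52936248, minus strand) lay in none.
Osr1: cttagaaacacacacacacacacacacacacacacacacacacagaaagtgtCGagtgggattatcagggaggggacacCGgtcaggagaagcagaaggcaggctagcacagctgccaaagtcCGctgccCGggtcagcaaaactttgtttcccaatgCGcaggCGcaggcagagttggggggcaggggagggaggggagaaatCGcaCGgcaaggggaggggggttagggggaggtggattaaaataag
Osr2: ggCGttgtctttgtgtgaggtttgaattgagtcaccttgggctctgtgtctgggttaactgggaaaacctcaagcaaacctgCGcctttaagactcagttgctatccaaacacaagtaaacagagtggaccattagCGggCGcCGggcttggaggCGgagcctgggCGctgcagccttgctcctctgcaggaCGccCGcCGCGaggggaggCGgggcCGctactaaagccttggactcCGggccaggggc
Sall1: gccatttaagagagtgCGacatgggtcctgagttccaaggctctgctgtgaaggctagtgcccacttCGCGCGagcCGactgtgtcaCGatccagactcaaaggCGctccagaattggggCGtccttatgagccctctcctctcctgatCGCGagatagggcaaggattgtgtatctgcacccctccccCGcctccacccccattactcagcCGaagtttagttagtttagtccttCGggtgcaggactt
Sall2 distal: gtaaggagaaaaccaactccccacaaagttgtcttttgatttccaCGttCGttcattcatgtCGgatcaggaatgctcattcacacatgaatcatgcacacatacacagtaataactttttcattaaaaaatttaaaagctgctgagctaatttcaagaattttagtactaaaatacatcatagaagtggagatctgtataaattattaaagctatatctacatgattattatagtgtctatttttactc
Sall2 proximal: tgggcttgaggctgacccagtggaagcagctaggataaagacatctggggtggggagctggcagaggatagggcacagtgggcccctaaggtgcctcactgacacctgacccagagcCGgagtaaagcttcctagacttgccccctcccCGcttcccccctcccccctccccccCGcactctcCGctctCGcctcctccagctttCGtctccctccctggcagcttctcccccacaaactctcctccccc
None of these windows held an annotated exon. The Osr1 window had 8 CG dinucleotides and the Osr2 window 14, and 52.5% and 35.6% of the promoters of 22350 protein-coding genes had at least as many in a window of the same length. The Sall1 window had 13 (38.3% of promoters had at least as many). The distal Sall2 window had 3 CG at 31.2% G+C, and the proximal Sall2 window had 6 CG at 64.4% G+C, with 75.4% and 59.5% of promoters reaching these numbers.

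The start site, taken as the annotated 5′ end of the gene, was first placed against each list to ask at which genes H3K27me3 was found and at which it remained under the inhibitors. The start sites of 6 of the 7 genes lay in K27R peaks, where 30.1% of all protein-coding genes had theirs. The same 6 genes, Sall1 to Sall4, Osr2 and Wt1, had their start sites in K27M peaks (9.02% of all genes) and in EZHIP peaks (7.73%). Among the 6735 genes with a start site in a K27R peak, 29.9% kept it in a K27M peak, 25.6% in an EZHIP peak and 21.9% in both, and all 6 of these genes kept it in both (6.6% of all genes). Osr1 was the exception and had no peak on any part of the gene in any list, where some part of the gene lay under K27R peaks in 36.1%, under K27M peaks in 11.5% and under EZHIP peaks in 10.6% of all genes. Counting peaks within 1000 bp or 5000 bp of the start site, or any annotated transcript start, gave 6 of 7 in each list as well.

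**Figure D1:**
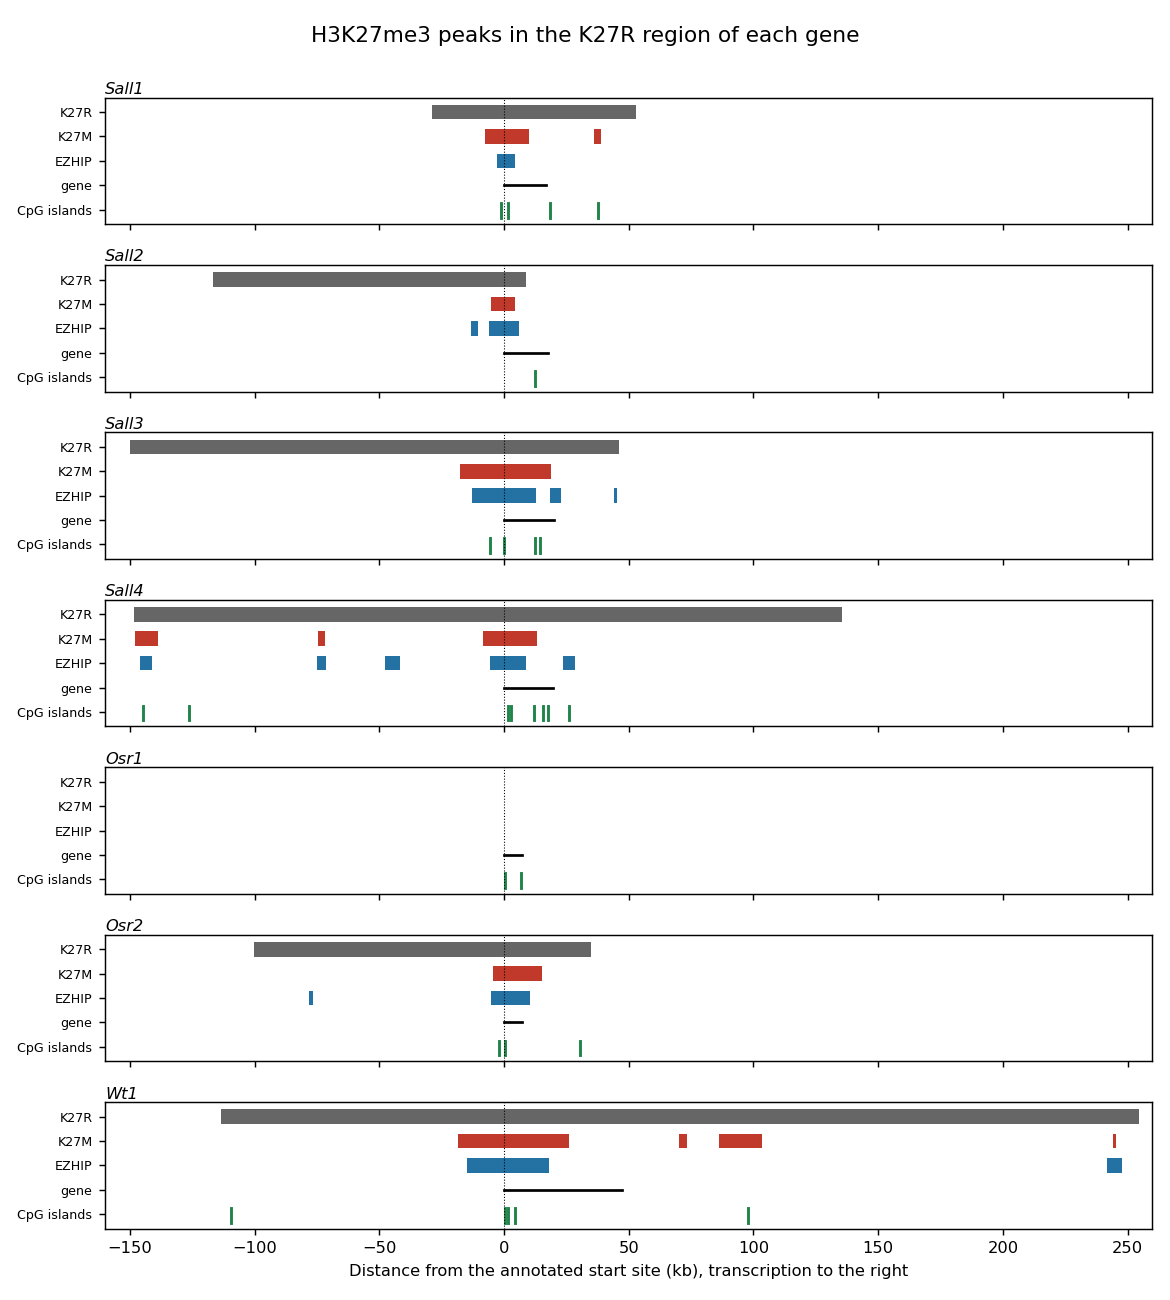
Peaks of the K27R (grey), K27M (red) and EZHIP (blue) lists in the K27R region around each gene, drawn as distance in kb from the annotated start site with transcription to the right; the black line is the gene and green ticks are CpG islands. Each residual peak over a start site takes a small part of a K27R region of 82 to 368 kb, and the Osr1 panel shows no peak.

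Osr1 and Osr2 encode closely related proteins and lay at opposite ends of the range of cover. Osr1 (ENSMUSG00000048387.7; chromosome 12, 9581248 to 9588305, plus strand, 7.06 kb) had 0 kb under the peaks of each list. The nearest K27R peak lay 1023 kb downstream of its start site, and 96.8% of the 15615 genes with a start site outside K27R peaks were nearer to one. The nearest K27M peak lay 1272 kb away over Gdf7, which encodes a BMP family ligand. The nearest EZHIP peak lay 1575 kb away over Kcns3, which encodes a potassium channel subunit. The interval free of K27R peaks around Osr1 spanned 2286 kb, from 8318601 to 10604400, and held the start sites of 12 protein-coding genes. These included Rhob, Sdc1, Matn3 and Pum2, which encode a small GTPase, a cell surface proteoglycan, a cartilage matrix protein and an RNA-binding protein. Whether Osr1 was transcribed in these cells was not analysed here.

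Osr2 (ENSMUSG00000022330.4; chromosome 15, 35225853 to 35233059, plus strand, 7.21 kb) lay inside peaks from end to end in every list. The K27R region over it spanned 135.2 kb (35125401 to 35260600). The K27M peak spanned 19.4 kb (35221601 to 35241000), from 4.25 kb upstream to 15.1 kb downstream of the start site. The EZHIP peak spanned 15.6 kb (35220801 to 35236400), from 5.05 kb upstream to 10.5 kb downstream. Osr2 was thus the only one of the 7 genes with all of its exons, 4 of 4, under both residual peaks. The EZHIP peak began further upstream than the K27M peak, and 94.9% of its length lay in the K27M peak. A further EZHIP peak of 1.4 kb lay 76.7 to 78.1 kb upstream in the same K27R region, where the K27M list had none.

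**Figure D2:**
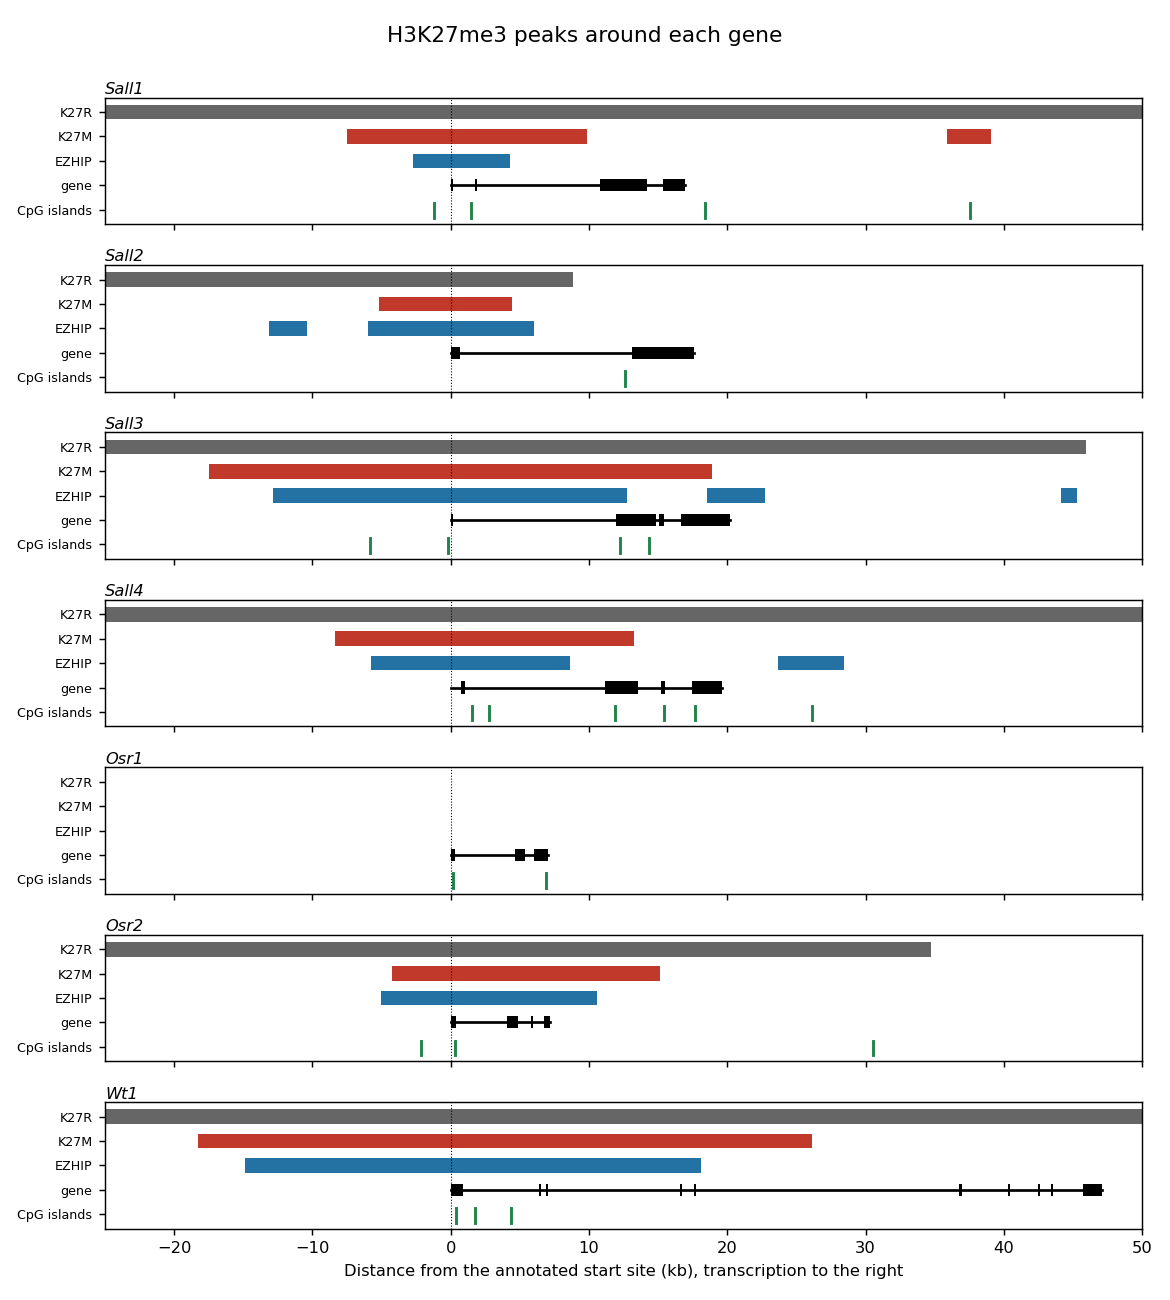
Peaks around each gene from 25 kb before to 50 kb after the start site, with exons as black boxes and CpG islands as green ticks; bars that reach the frame continue beyond it. The residual peaks straddle the start sites of 6 genes, end before the last exons of Sall1, Sall2, Sall4 and Wt1, and cover Osr2 whole.

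The Sall genes were compared next. Sall1 (ENSMUSG00000031665.6; chromosome 8, 91551147 to 91568061, minus strand, 16.9 kb) lay whole in a K27R region of 82 kb (91515001 to 91597000), the narrowest of the 6. The K27M peak over its start site spanned 17.4 kb (91558201 to 91575600) and the EZHIP peak 7 kb (91563801 to 91570800). The EZHIP peak was 0.402 times as wide as the K27M peak, the lowest ratio of the 6 genes, and lay wholly inside it. Both peaks held exons 1 and 2 of 4 and left out exons 3 and 4. A second K27M peak of 3.2 kb lay 35.9 to 39.1 kb downstream of the start site, beyond the end of the gene, and EZHIP had no peak there.

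Sall2 (ENSMUSG00000049532.6; chromosome 14, 52930847 to 52948437, minus strand, 17.6 kb) was the only gene of the 6 that did not lie whole in the K27R region, as 66.6% of the genes with a start site in K27R peaks did. Its region of 125.6 kb (52939601 to 53065200) reached 116.8 kb upstream and 8.84 kb downstream of the distal start site. The annotation gives Sall2 a distal start at 52948437 (Sall2-001) and proximal starts at 52935998 (Sall2-002) and 52935910. The distal start lay in the K27M peak (9.6 kb, 52944001 to 52953600) and in the EZHIP peak (12 kb, 52942401 to 52954400). The proximal start at 52935998 lay 3.6 kb outside the K27R region, 8.0 kb from the K27M peak and 6.4 kb from the EZHIP peak. Coding starts on both sides of a K27R edge were found in 12.2% of the 5337 genes with coding starts at least 1000 bp apart. Exon 1 of 2 lay under all 3 lists, and exon 2, which holds most of the coding sequence, lay under none.

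Sall2 also differed in the order of the inhibitor lists. Its EZHIP peak was 1.25 times as wide as its K27M peak and contained it, and a second EZHIP peak of 2.8 kb lay 10.4 to 13.2 kb upstream where K27M had none. In the other 5 genes the K27M peak was the wider one. Over the 1476 genes with a start site in both lists, the K27M peak was wider in 78.7% and the EZHIP peak in 19.6%.

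Sall3 (ENSMUSG00000024565.8; chromosome 18, 81163115 to 81183317, minus strand, 20.2 kb) kept the broadest residual peaks of the Sall genes. Its K27R region spanned 195.8 kb (81137401 to 81333200). The K27M peak spanned 36.4 kb (81164401 to 81200800) and touched all 4 exons. In EZHIP the start site was covered by 25.6 kb (81170601 to 81196200), and a separate peak of 4.2 kb (81160601 to 81164800) lay over the 3′ end of the gene. Together these touched exons 1, 2 and 4. Another EZHIP peak, of 1.2 kb, lay 44.1 to 45.3 kb downstream of the start site.

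Sall4 (ENSMUSG00000027547.11; chromosome 2, 168573832 to 168593443, minus strand, 19.6 kb) lay in a K27R region of 284 kb (168457801 to 168741800). The K27M peak over its start site spanned 21.6 kb (168580201 to 168601800) and the EZHIP peak 14.4 kb (168584801 to 168599200), wholly inside the former. The 5′ end of the gene belongs to a noncoding transcript, and the coding start of Sall4-001, 0.742 kb further in, lay in the same peaks. The start of another coding transcript, Sall4-006, 12 kb inside the gene, lay in the K27R and K27M peaks. It was 3.36 kb outside the EZHIP peak. Of the 4 exons of Sall4-001, the K27M peak held exon 1 and reached into exon 2, and the EZHIP peak held exon 1 alone. The region of Sall4 held 3 K27M peaks and 5 EZHIP peaks. At 71.8 to 74.6 kb and 138.8 to 148.0 kb upstream, K27M peaks overlapped EZHIP peaks. EZHIP peaks at 41.6 to 48.0 kb upstream and at 23.6 to 28.4 kb downstream had no K27M counterpart, and the latter held the start site of Atp9a, which encodes a P4-type ATPase.

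Wt1 (ENSMUSG00000016458.6; chromosome 2, 104966686 to 105013773, plus strand, 47.1 kb) had the widest peaks of the 7 genes in every list. Its K27R region spanned 368 kb (104853201 to 105221200), wider than that of 87.5% of the genes with a start site in K27R peaks. The K27M peak spanned 44.4 kb (104948401 to 104992800) and the EZHIP peak 33 kb (104951801 to 104984800), wider than those of 85.0% and 90.6% of the genes with a start site in the same list. Both held exons 1 to 5 of 10 and ended before exons 6 to 10. The last exons of Wt1 encode its zinc fingers. Transcripts of Wt1 also start 4.27 to 4.37 kb inside the gene, and these starts lay in both residual peaks, whereas the start of Wt1-009, at 36.3 kb, lay in the K27R region alone. Further in the region, K27M peaks of 3.2 and 17.2 kb at 70.1 to 73.3 and 86.3 to 103.5 kb downstream had no EZHIP counterpart. The last K27M peak (1.4 kb) lay inside the last EZHIP peak (6 kb) at 241.7 to 247.7 kb.

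The share of each gene under peaks was then compared between lists. Summed over the 7 genes, 119.9 of 135.7 kb lay under K27R peaks, 79.8 kb under K27M peaks and 58.7 kb under EZHIP peaks. The median share was 100% for K27R, 58.3% for K27M and 38.5% for EZHIP. K27M covered 58.3% of Sall1, 25.2% of Sall2, 93.6% of Sall3, 67.5% of Sall4, 100% of Osr2 and 55.5% of Wt1. EZHIP covered 25.2%, 34.3%, 71.3%, 44.1%, 100% and 38.5% of the same genes in the same order. Cover was lower in EZHIP than in K27M for Sall1, Sall3, Sall4 and Wt1, higher for Sall2 and equal for Osr2. Over all 2011 genes with a start site in K27R and K27M peaks the median share under K27M peaks was 34.1% (quartiles 6.10 and 100%), and over the 1724 genes with a start site in K27R and EZHIP peaks the median under EZHIP peaks was 26.2% (quartiles 6.30 and 91.6%). The shares of these 6 genes thus lay at or between the quartiles of all such genes in K27M, and in EZHIP all but Osr2 did.

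**Figure D3:**
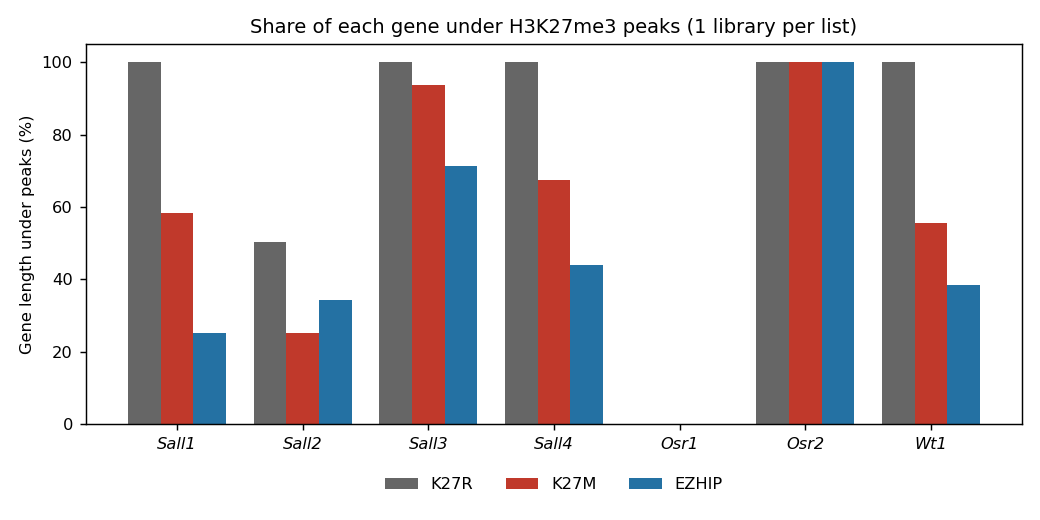
Share of each gene's length (%) under the peaks of each list, with 1 library per list and therefore no error bars. Osr2 stands at 100% in all lists, Osr1 at 0%, and Sall2 is the gene with more under EZHIP (34.3%) than under K27M (25.2%).

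Widths of the peak over the start site were compared with those of other genes. Over the 6 genes the median width was 165.5 kb for K27R, 20.5 kb for K27M and 15 kb for EZHIP. The medians over all genes with such a peak were 96.8 kb (n = 6735), 11.8 kb (n = 2015) and 8.4 kb (n = 1728). The K27R region was 4.71 (Sall1) to 13.1 times (Sall4) as wide as the K27M peak and 7.65 (Sall3) to 19.7 times (Sall4) as wide as the EZHIP peak. The EZHIP peak was 0.723 times as wide as the K27M peak in the median, and 0.705 times over the 1476 genes with both (quartiles 0.489 and 0.940). It lay wholly inside the K27M peak in Sall1, Sall3, Sall4 and Wt1, and in 69.9% of the 1476 genes. Neighbouring peaks came no nearer to each other than 5200 bp in the K27M list and 1200 bp in the EZHIP list. In the K27R list the shortest gap was 0 bp. The part of these differences in the widths was examined by merging alone. Merging over gaps of up to 10000 bp widened the EZHIP peak to 19.2 kb at Sall2 and 35.6 kb at Sall3. It left the K27M peaks at 9.6 and 36.4 kb, and K27M stayed the wider one in 5 of 6 genes. The K27R peak widened from 195.8 to 247.6 kb at Sall3 and from 135.2 to 160.2 kb at Osr2. The K27R ratios above are those of the unmerged peaks.

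**Figure D4:**
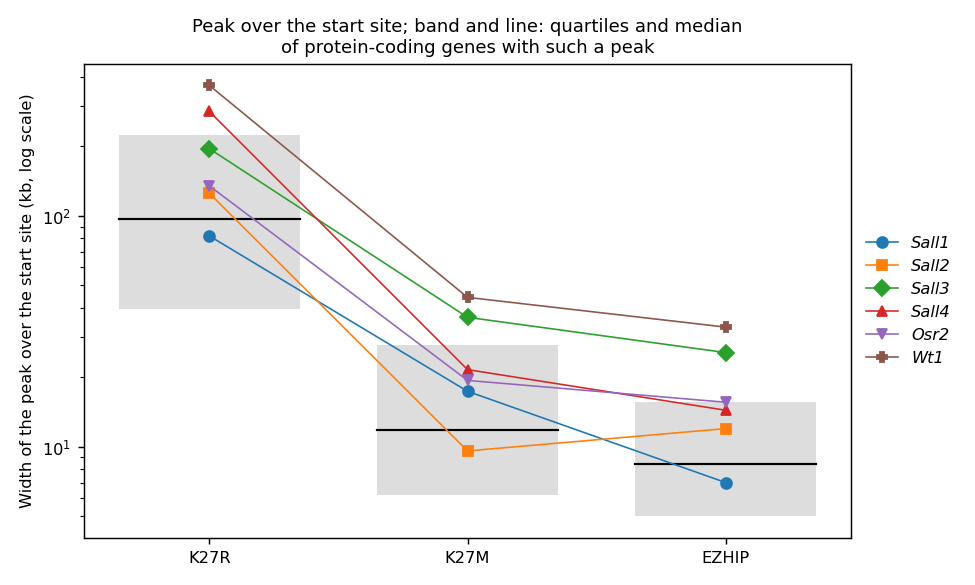
Width in kb (log scale) of the peak over the start site of 6 genes in each list, with the median (line) and quartiles (band) of protein-coding genes that have such a peak. All 6 lines fall from K27R to both inhibitor lists, and that of Sall2 alone rises from K27M (9.6 kb) to EZHIP (12 kb).

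Within the K27R regions of the 6 genes, K27M peaks covered 25.1% at Sall1, 7.64% at Sall2, 18.6% at Sall3, 11.8% at Sall4, 14.3% at Osr2 and 18.0% at Wt1. EZHIP peaks covered 8.54%, 11.8%, 15.8%, 11.9%, 12.6% and 10.6% in the same order. The medians were 16.2% in K27M and 11.8% in EZHIP, against 22.0% and 17.5% over all genes with a start site in K27R and in the respective list. Start sites of other genes in the same K27R regions were also placed against the residual peaks. Of 8 protein-coding neighbours, the start sites of Olfr1510, Olfr1511, Olfr1512 and Olfr1513 (odorant receptors beside Sall2), and of Eif3m (a translation factor subunit) and Gm11060 near Wt1, lay in the K27R region alone. The start site of Atp9a near Sall4 lay in an EZHIP peak and that of 0610012H03Rik near Wt1 in a K27M peak, each in 1 inhibitor list. Over all 6735 genes with a start site in a K27R peak, 29.9% had it in a K27M peak, 25.6% in an EZHIP peak and 21.9% in both. Whether the 8 neighbours differ from these shares was not tested.

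A fixed score of CG content was used to locate CpG islands in mm9, because the study described the residual peaks by their position at such islands. The K27R regions of the 6 genes held 24 islands, of which 17 overlapped K27M peaks (70.8%), 14 EZHIP peaks (58.3%), 13 both and 6 neither. K27M and EZHIP peaks covered 15.6% and 11.98% of the length of these regions. The length share is not a like measure, because an island counted at an overlap of 1 bp. All 6 regions were also set by start sites that lay in both residual lists. The share of islands under residual peaks over all K27R regions was not computed, so enrichment at islands was not tested. Among the 11 islands of at least 500 bp, 9 overlapped each list (81.8%). The longest islands were those of Sall1 (3338 bp), Sall3 (2430 bp), Sall4 (1380 bp), Wt1 (1233 bp) and Osr2 (904 bp), and each lay in both residual lists at or within 1 kb of the start site. The Sall3 start had the highest CpG content, with an observed to expected ratio of 0.996 over 1001 bp, reached by 2.02% of 22350 genes.

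Islands and peaks did not coincide at 2 of the genes. The K27R region of Sall2 held 0 islands by this score, and the distal start had a CpG ratio of 0.336, yet both residual peaks lay over it. The single Sall2 island (266 bp, 52935713 to 52935978) adjoined the proximal starts, which lay in no list. Osr1 had an island of 343 bp at its start site and another of 209 bp near its 3′ end, and a CpG ratio of 0.592 at the start site, beside 0.635 at Sall1 and 0.656 at Wt1. Over all 11724 genes with an island within 500 bp of the start site, 24.8% had the start site in a K27R peak, 13.1% in a K27M peak and 11% in an EZHIP peak. Where such a start site lay in a K27R peak (2903 genes), 52.6% kept it in a K27M peak and 44.5% in an EZHIP peak. Sall1, Sall3, Osr2 and Wt1 were of this kind and kept it in both.

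**Figure D5:**
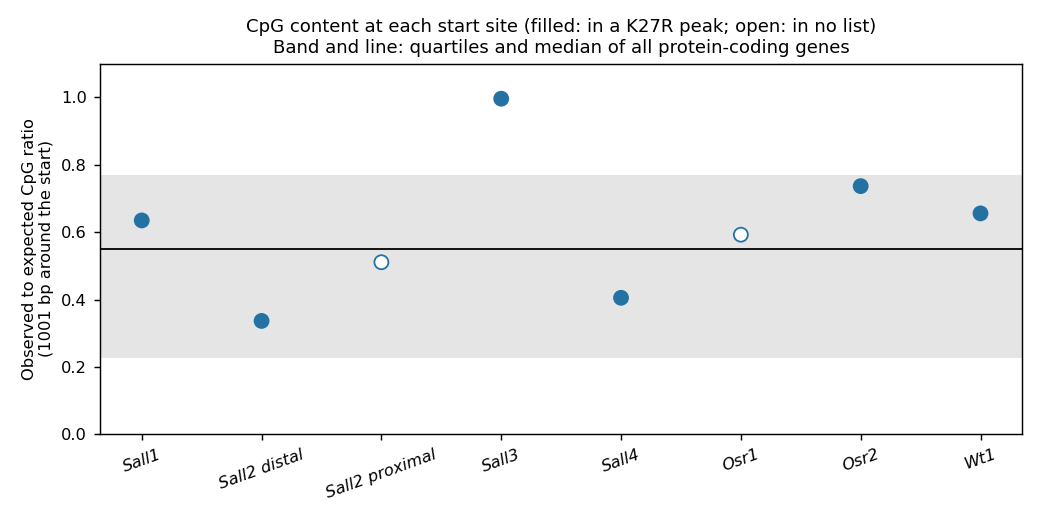
Observed to expected CpG ratio in 1001 bp around each start site, with filled points for starts in all 3 lists, open points for starts in none, and the median (line) and quartiles (band) of all protein-coding genes. The open points, Osr1 (0.592) and the proximal Sall2 start (0.511), lie above the filled points of distal Sall2 (0.336) and Sall4 (0.405). The Sall4 window is centred on the 5′ end of a noncoding transcript. An island of 1380 bp, in both residual lists, begins 0.812 kb further in and lies outside this window.

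Related genes were counted in the same way. Of 60 other C2H2 zinc finger regulators found in the annotation, the start sites of 36 lay in K27R peaks (60%), 30 had theirs in K27M peaks (50%) and 29 had theirs in EZHIP peaks (48.3%). No peak of any list lay on 21 of the 60. Over all protein-coding genes, some part lay under K27R peaks in 36.1%, under K27M peaks in 11.5% and under EZHIP peaks in 10.6%. In the 60 regulators the median share of the gene under peaks was 86.9% for K27R, 5.08% for K27M and 3.27% for EZHIP. Ikzf3 and Prdm12 were among those with the most cover. Ikzf3, a regulator of lymphocytes, had 61.1 of 81.1 kb under K27M and 81.1 kb under EZHIP peaks, and Prdm12, a regulator of sensory neurons, had all of its 15.8 kb under both. Of 28 other genes of intermediate mesoderm and kidney, the start sites of 21 lay in K27R peaks (75%), 20 in K27M peaks (71.4%) and 16 in EZHIP peaks (57.1%). Their median share of the gene under peaks was 100% for K27R, 26.9% for K27M and 9.97% for EZHIP. Pax2, a regulator of the nephric lineage and among the 6 of this list with the most cover, lay whole (82.2 kb) under all 3 lists, and Hoxd11, which patterns the kidney mesenchyme, did so over 8.35 kb. Nphs1, which encodes nephrin of the podocyte slit diaphragm, had 15.5 of 28.9 kb under K27M and 10.9 kb under EZHIP peaks.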

How the data were processed

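H3K27me3 ChIP-Seq peak lists of 3 MEF lines with 1 library each were analysed, and groups were taken from the sample titles. Per the labels, chromatin was fixed, cut with MNase and precipitated with an antibody that the labels call H2K27me3. The authors aligned reads with Bowtie (1.0.0 in their processing notes) to mm9 and a spike-in genome and called broad peaks with MOSAiCS-HMM at a set error rate, joining distance, size and read threshold. Whether spike-in scaling entered the calls is not given in the sources used here. The deposited lists hold positions only. All starts and ends lay on 200 bp bins, and positions are printed counting from 1. All peaks ended inside the mm9 chromosome lengths, so that the mm9 sequence and GENCODE vM1 were used without conversion.

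Start sites, gene bodies and K27R regions were intersected with the lists at a minimum overlap of 1 bp, and no test was made because each line had 1 library. For CpG islands, each CG scored 17 and any other base -1, and high-scoring stretches over 200 bp were kept if G+C reached 50% and the observed to expected CpG ratio exceeded 0.6 (23681 islands, repeats unmasked). The interval tools and the island finder were tested on simulated data. Named genes were the 7 members, genes with a start site in the same K27R region, the gene most like each member in peak width, and genes of the related lists with the most cover. The genes under the peaks nearest Osr1 and 4 of those in the interval free of K27R peaks around it were named outside this rule, after their values were seen. The members and lists were chosen with earlier results of these data known. Alternatives were minimum widths of 2000 and 5000 bp, merging within 10000 bp, trimming of peak ends, wider windows, other start sites and longer islands. Python 3.11.15, numpy 2.4.6, pysam 0.24.0 and scipy 1.17.1 were used.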

Additional observations from a re-analysis of the deposited data

How the results depend on the processing

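With 1 library per line no replicate could be left out and no value could be set against replicate spread. A covered length was taken to have moved when its share of the span left a 95% exact binomial interval over 200 bp bins. For islands the interval was taken over islands. These intervals cover counting error only and treat bins as independent. Distances and peak widths were taken to have moved on a change of more than 200 bp. Counts of genes were judged by a fixed limit on their ratio to the main count. The number of genes with a start site in a peak was 6 in every list under all 7 alternatives. These could hardly change it, because the narrowest such peak was 7 kb wide (Sall1, EZHIP) and no peak lay within 1023 kb of the Osr1 start site. Merging over gaps of up to 10000 bp raised the summed gene length under EZHIP peaks to 64.5 kb and lowered the share of the K27R regions under K27M peaks to 14.7%, the latter because merging widened the K27R regions of Sall3 and Osr2. Peaks of at least 5000 bp lowered the EZHIP share to 10.1%. Adding 5000 bp on each side of the genes, which lengthened the measured span as well, raised the sum to 175 kb under K27R, 114 kb under K27M and 93.2 kb under EZHIP peaks. As shares of that span, only the K27R sum moved by the rule above, and the K27M and EZHIP sums stayed within their limits. Counting islands of at least 500 bp raised the EZHIP share to 81.8%. Of 255 values for single genes and settings, 243 stayed within their limits and 12 moved. Trimming of peak ends shifted the Osr1 distance by 200 bp in every list, which was counted as unmoved. Many of the unmoved values were distances of 0 inside a peak or the absent cover of Osr1, and had little room to move. With peaks of at least 5000 bp, the nearest peak to Osr1 lay 1572 kb away in K27M and 5538 kb in EZHIP. Merging for the comparison of peak widths was chosen after the data were examined. No paired analysis was possible because each group had 1 library.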

Other observations

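Genes with peaks of nearly the same width over the start site in all 3 lists were looked up for each of the 6 genes, as the smallest summed difference of log2(kb + 1) over the 3 lists among genes outside its own K27R region. Sall1 was nearest to Hs3st3b1, a heparan sulfate sulfotransferase gene, with widths of 78.2 kb (K27R), 17.8 kb (K27M) and 7 kb (EZHIP). Sall2 was nearest to Syt2, a synaptotagmin gene, with 117.2, 9.8 and 12 kb in the same order. Sall3 was nearest to Nr5a2, an orphan nuclear receptor gene, with 180.0, 34.8 and 24.2 kb. Sall4 was nearest to Dmrt1, a gene of the testis and germ cells, with 265.4, 21.6 and 16.6 kb. Osr2 was nearest to Zdhhc22, a palmitoyltransferase gene, with 135.6, 18.8 and 15.8 kb. Wt1 was nearest to Foxb1, a forkhead gene of the developing brain, with 366.6, 46.2 and 37.4 kb. The summed differences ran from 0.0646 (Osr2) to 0.290 (Sall4). Likeness over 3 values from 1 library each describes these lists only.

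The related genes below were among the 6 of each list with the most cover by length, and do not stand for their lists. Casz1, a zinc finger gene of heart and vessel development, had 41.5 of 150.5 kb under K27M and 29.1 kb under EZHIP peaks. Wnt9b, a ligand of nephron induction, had 14.5 and 14.9 of 22.5 kb. Gata3, a regulator of the nephric duct, had 20.9 of 33.0 kb under K27R, 9.86 kb under K27M and 7.46 kb under EZHIP peaks. Bmp7, a ligand that maintains nephron progenitors, lay whole in K27R peaks (72.3 kb) with 10.2 kb under K27M and 7.62 kb under EZHIP peaks.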
